A study of Camellia sinensis with 15 samples.

Results

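The genes described here were those whose transcript level in tea roots was higher in every library taken 10 d after treatment with cadmium or arsenic than in any library of untreated roots or of roots taken at 15 d. They were chosen by their measured values: on the log2(FPKM + 1) scale, the lowest of the 5 libraries of Cd1 and As1 had to lie above the highest of the 9 libraries of Cd2, As2 and CK, and the means of Cd1 and of As1 each had to be at least 0.58 above the mean of CK. FPKM is the number of sequenced fragments of a gene, scaled by the gene's length and by the size of the library. Of 59128 genes listed, 66 met the rule, and all 66 were among the 33109 genes tested, which reached 1 FPKM in 3 or more libraries. The order of the libraries alone, with no minimum rise over CK, was met by 163 genes, and the mirrored rule, with all 5 libraries at 10 d lowest and both means at least 0.58 below CK, was met by 328 genes.

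The roots came from wild-type 2-year-old potted seedlings of the cultivar Fuding Dabaicha. Cd1 and As1 were roots taken 10 d after 400 mL of a solution of 120 mg/kg Cd(II) or As(V) was given, Cd2 and As2 were roots taken at 15 d, and CK was untreated roots, for which the study's text states no sampling time. The times of 10 d and 15 d come from the study's text, since the sample labels give 15 d for every library. The form As(V) is that of the study's methods, whereas its results section writes As(II). Each group had 3 labelled libraries, but the library labelled Cd1 replicate 3 held the same values as Cd2 replicate 1 and carried the Cd2 name in its own header, so it was counted once, as Cd2 replicate 1, which left 2 libraries in Cd1 and 3 in each other group. Whether the replicates were separate plants was not stated, so the p-values measure only the spread between these libraries, which may be technical. CK was 1 group for both metals, so comparisons with CK share their untreated libraries, and fewer cells of a type cannot be told apart from less RNA per cell in whole roots.

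Cadmium is not a nutrient and enters root cells largely through transporters for essential metals such as iron, zinc and manganese, while arsenate enters through phosphate transporters and is reduced to arsenite inside the cell. Both cadmium and arsenite bind thiols, and plants detoxify them with glutathione and the phytochelatins made from it, followed by storage of the complexes in root vacuoles. Neither the deposited tables nor the RefSeq gene table for Camellia sinensis (assembly ASM5576180v1) pairs the CSS identifiers with gene names, positions or sequences, so the members are described by their identifiers, lengths and levels, and no role can be given to any of them.

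The 14 distinct libraries held 10483406 to 13847064 fragments (median 12180010), as recovered from the steps of the FPKM values. The 5 libraries at 10 d listed 35674 to 39745 genes above 0 (median 37407), and the other 9 listed 37933 to 39868 (median 39152). The 100 most abundant genes took 12.99% to 15.9% of the fragments in the libraries at 10 d and 11.98% to 15.6% in the others.

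Of the 66 members, 54 had CSS identifiers and 12 (18.2%) had identifiers of another kind, against 16.1% of the genes tested. The members were 285 to 4093 bases long with a median of 1518.5, and the genes tested had a median length of 1207. At 10 d the members' mean FPKM was between 1.20 and 360.2 with a median of 14.6, and the median of all genes tested was 5.67. In untreated roots the members' median FPKM was 6.68, close to the 6.04 of all genes tested. The 12 members without a CSS identifier were at lower levels than the others, with a median FPKM at 10 d of 2.74, against 19.2 for the 54 CSS members.

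The rise over CK that chose the members was between 0.59 and 3.27 on the log2 scale in Cd1 (median 0.90) and between 0.58 and 2.28 in As1 (median 0.94). As ratios of mean FPKM, the median member was 1.96 times its CK level in Cd1 and 2.06 times in As1. The highest ratios were 125 times in Cd1 and 58.7 times in As1. The lowest CK mean of a member was 0.017 FPKM, so a ratio can rest on almost no fragments in CK. These highest ratios are therefore not read as the size of a rise. The ranking by rise used below is on the log2(FPKM + 1) scale and is not a ranking by ratio. Both means were more than 1 above CK in 18 members and both were less than 1 above it in 33. As a description of values the rule had used, members were counted at the threshold for differentially expressed genes (DEGs). This threshold was a log2 fold change above 1 at an adjusted p-value, or FDR, below 0.05. As higher in Cd1 vs. CK, 12 members passed it, where 0.453% of all genes tested did. As higher in As1 vs. CK, 13 passed it, where 0.338% did.

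**Figure D1:**
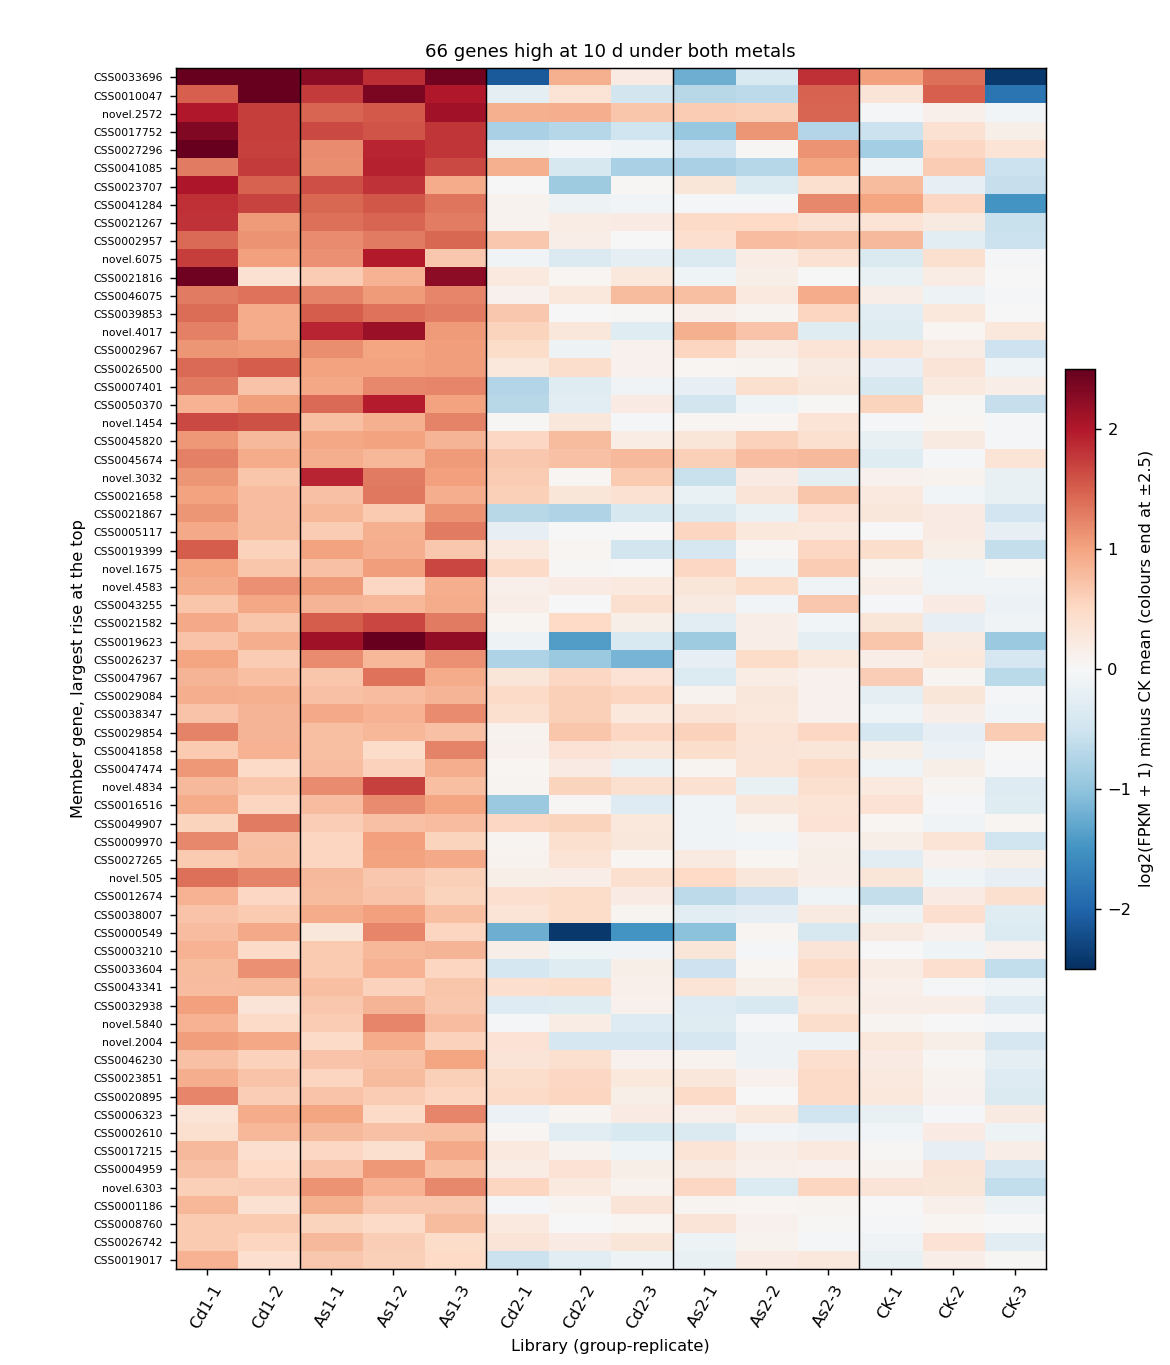
Each row is 1 of the 66 members and each column 1 of the 14 libraries, grouped as Cd1, As1, Cd2, As2 and CK, and the colour is log2(FPKM + 1) minus the gene's CK mean, red above and blue below it, with members ordered by the smaller of their rises in Cd1 and As1. The left 5 columns are the ones the rule chose as high, and among the others As2 replicate 3 is redder than its group in several of the top rows and CK replicate 3 is bluer.

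Summed over the 66 members, FPKM was 2159 and 1874 in Cd1, 2063, 2349 and 2112 in As1, 923.02, 1011 and 1012 in Cd2, 927.9, 1087 and 1232 in As2, and 1056, 1121 and 865.8 in CK. These sums made up 0.280% ± 0.0099 of all FPKM in Cd1 (SD, n = 2), 0.267% ± 0.0046 in As1, 0.139% ± 0.0033 in Cd2, 0.138% ± 0.011 in As2 and 0.128% ± 0.013 in CK (SD, n = 3 each). The 9 libraries outside 10 d thus lay between 0.115% and 0.151%, with As2 replicate 3 highest and CK replicate 3 lowest, and the share in both 15 d groups lay close to that of untreated roots. These sums rest on the values that chose the members and are a description.

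The most abundant member was CSS0007401 (866 bases). It had 413.9 and 275.4 FPKM in Cd1 and 329.3, 389.0 and 393.6 in As1, against 101.1, 137.0 and 158.8 in Cd2, 146.6, 221.5 and 205.0 in As2, and 126.6, 198.3 and 189.3 in CK. Its 15 d and CK libraries overlapped, and its lowest library at 10 d, Cd1 replicate 2, stood 0.31 above the highest of the others on the log2 scale. Its mean was 2.01 times that of CK in Cd1 and 2.16 times in As1.

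CSS0050370 (1277 bases) had 182.0 and 205.3 FPKM in Cd1 and 265.3, 386.6 and 198.4 in As1, against 60.5, 80.9 and 113.1 in Cd2, 71.7, 91.8 and 100.9 in As2, and 144.8, 100.7 and 65.5 in CK. Its As1 libraries were spread widely, with replicate 2 far above the other As1 libraries, and CK replicate 1 was its highest untreated library. CSS0002967 (1395 bases) was far more even at 10 d, with 86.0 and 83.7 FPKM in Cd1 and 90.3, 79.6 and 82.3 in As1, against 54.9, 36.0 and 42.5 in Cd2, 57.8, 45.2 and 50.2 in As2, and 50.5, 45.1 and 27.3 in CK. Its 5 libraries at 10 d thus spanned a narrower range of FPKM than the 3 libraries of Cd2, of As2 or of CK.

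CSS0021582 (540 bases) had the smallest adjusted p between the metals at 10 d, given below. It had 103.1 and 86.8 FPKM in Cd1 and 154.4, 172.5 and 131.7 in As1, against 55.4, 75.2 and 58.7 in Cd2, 43.5, 60.1 and 50.7 in As2, and 65.9, 45.7 and 49.98 in CK. All 3 As1 libraries lay above both Cd1 libraries.

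The other abundant members were CSS0002610, CSS0016516, CSS0032938 and CSS0010047, whose lowest FPKM in Cd1 and As1 was 71.1, 62.3, 52.5 and 44.9 in that order of genes. Their highest FPKM in Cd2, As2 and CK was 61.7 for CSS0002610, 55.3 for CSS0016516, 50.1 for CSS0032938 and 44.9 for CSS0010047. On the log2 scale the distance between these was 0.20 for CSS0002610, 0.17 for CSS0016516 and 0.067 for CSS0032938, and for CSS0010047 it was almost nothing.

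The largest rise over CK, ranked by the smaller of the rises in Cd1 and As1, was that of CSS0033696 (2023 bases), at 3.27 on the log2 scale in Cd1 and 2.17 in As1. It had 58.5 and 43.2 FPKM in Cd1 and 24.4, 18.1 and 27.1 in As1, against 0.238, 8.74 and 5.07 in Cd2, 1.27, 3.06 and 17.7 in As2, and 9.79, 12.8 and 0 in CK. Its CK libraries thus ran from no fragment at all to 12.8 FPKM, and As2 replicate 3 came within 0.034 of the lowest As1 library on the log2 scale. In CK replicate 3, where 0 fragments were counted, a floor of 3 fragments corresponds to 0.121 FPKM. This floor, like the intervals on fragments below, covers counting error only.

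CSS0010047 (2154 bases) was second, with rises of 2.01 in Cd1 and 2.04 in As1. It had 44.9 and 92.6 FPKM in Cd1 and 53.6, 82.4 and 63.8 in As1, against 12.97, 19.5 and 10.8 in Cd2, 9.06, 9.30 and 44.1 in As2, and 19.4, 44.9 and 3.57 in CK. Only 0.00033 on the log2 scale separated Cd1 replicate 1 from CK replicate 2, so the gene had a mean 3.04 times that of CK in Cd1 while 1 untreated library matched 1 treated library.

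The third largest rise was that of a gene of 1793 bases without a CSS identifier, whose untreated libraries were the most even among the 8 largest rises. It had 13.1 and 10.7 FPKM in Cd1 and 8.67, 9.17 and 14.05 in As1, against 5.53, 5.56 and 4.63 in Cd2, 4.48, 4.32 and 8.65 in As2, and 2.38, 2.84 and 2.33 in CK. All 6 libraries at 15 d lay above all 3 untreated ones. As2 replicate 3 came within 0.0038 of the lowest As1 library on the log2 scale, and the other libraries at 15 d were at an intermediate level.

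CSS0017752 (1519 bases) had lower mean levels in Cd2 than in CK. It had 36.4 and 24.1 FPKM in Cd1 and 22.8, 21.3 and 25.05 in As1, against 3.26, 3.60 and 4.35 in Cd2, 2.91, 15.1 and 3.52 in As2, and 4.21, 8.75 and 7.38 in CK. Apart from As2 replicate 2, its libraries outside 10 d stayed under 9 FPKM, and it was the only 1 of the 8 largest rises in which As2 replicate 3 was not the highest As2 library.

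The other 4 of the 8 largest rises were CSS0027296, CSS0041085, CSS0023707 and CSS0041284, with smaller rises of 1.63, 1.53, 1.45 and 1.44 on the log2 scale in that order of genes. CSS0041284 had 9.77 and 8.90 FPKM in Cd1 and 7.22, 7.99 and 6.68 in As1, against 2.24, 1.78 and 1.91 in Cd2, 1.95, 1.96 and 6.05 in As2, and 5.03, 3.36 and 0.082 in CK. CSS0041085 had 9.72 and 13.6 FPKM in Cd1 and 8.68, 15.5 and 12.6 in As1, against 7.005, 2.27 and 1.47 in Cd2, 1.48, 1.64 and 7.61 in As2, and 3.06, 5.74 and 1.97 in CK. In both, As2 replicate 3 stood well above the other As2 libraries and CK replicate 3 was the lowest untreated library.

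**Figure D2:**
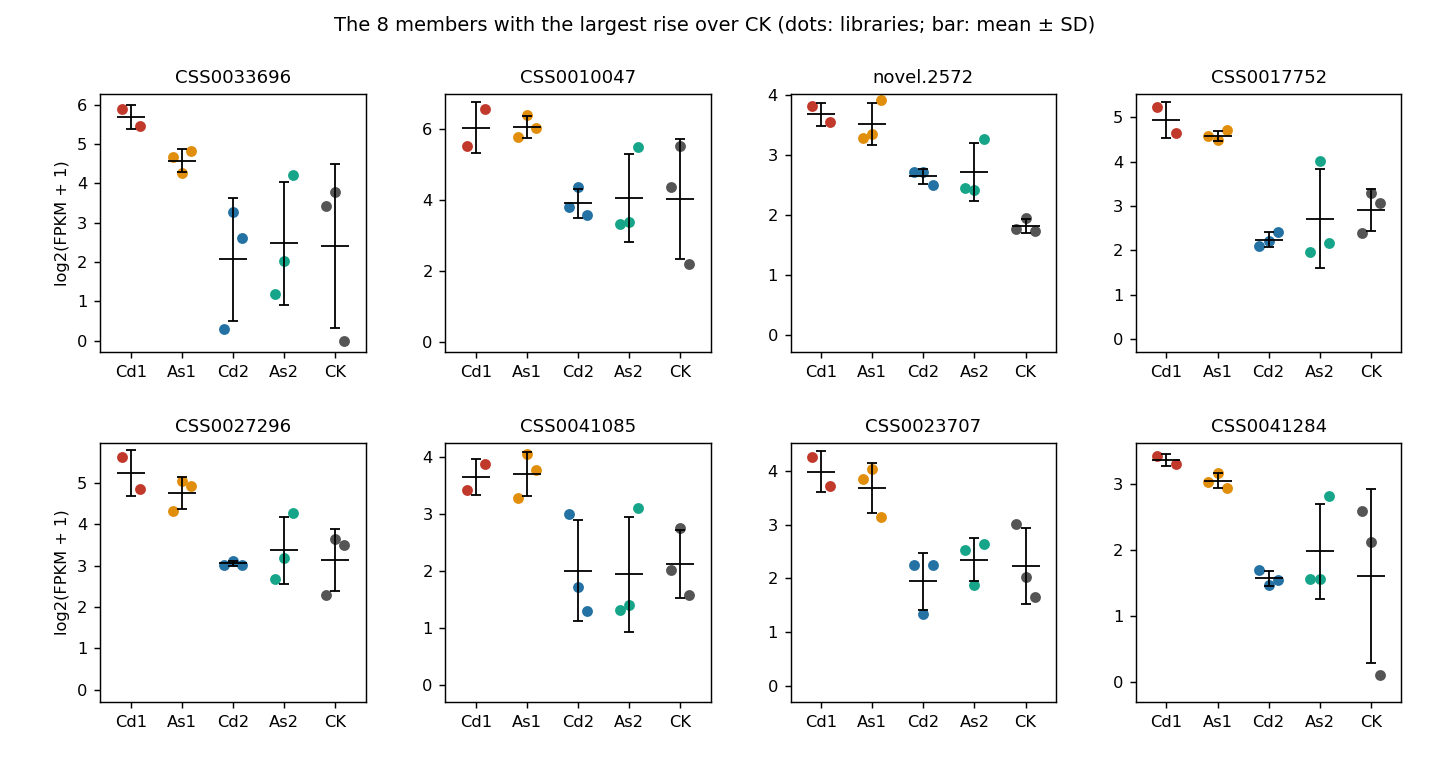
Each panel is 1 of the 8 members with the largest rise, with log2(FPKM + 1) on the vertical axis, the groups Cd1, As1, Cd2, As2 and CK along the horizontal axis, a dot for each library, and a horizontal bar with whiskers for the mean and SD. The wide whiskers of As2 and CK in CSS0033696, CSS0010047 and CSS0041284 come with 1 high As2 library, replicate 3, and 1 low CK library, replicate 3.

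Some libraries held the extreme of their group in many of these genes. As2 replicate 3 was the highest of its group in 7 of the 8 largest rises and in 37 of the 66 members (56.1%), against 33.4% of the genes tested whose As2 libraries differed. In CSS0033696 its FPKM was 8.17 times the mean of the other As2 libraries, and in CSS0010047 it was 4.80 times. CK replicate 3 was the lowest of its group in 6 of the 8 largest rises and in 39 of the members (59.1%), against 33.9% of the genes tested, and it was the lowest of all 9 libraries outside 10 d in 27 members. The rule and the ranking by rise both used the CK mean, which favours genes with a low CK library, and the rule used every As2 library as a bound, so these shares are a description. The number of genes meeting the rule without each library is given below, and the part of these libraries in the size of the rises was not tested.

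The members also varied within the libraries at 10 d. Cd1 replicate 2 was the lowest of the 5 in 24 members and Cd1 replicate 1 the highest in 24. Cd1 replicate 1 was above Cd1 replicate 2 in 48 members (72.7%), against 48.2% of the genes tested whose Cd1 libraries differed. The sum of FPKM over all genes was 653581 in Cd1 replicate 2, the lowest of the 14 libraries, and 791541 in Cd1 replicate 1. As a share of that sum, the members made up 0.287% in Cd1 replicate 2 and 0.273% in Cd1 replicate 1, the reverse order. The part of this sum in the order of the libraries was not tested. After subtraction of each group's mean, the median Pearson correlation over the 14 libraries was 0.25 for the 28 pairs among the 8 largest rises, of which 20 were above 0, and 0.14 for the 2145 pairs among all 66 members. These pairs share libraries and their scaling, and the rule and the ranking by rise favour genes with a low CK library. No value for other genes is set beside these correlations, and nothing is read from them.

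The distance between the lowest library at 10 d and the highest other library was small for most members. Its median was 0.11 on the log2 scale, 32 members had less than 0.1, and 2 had more than 0.5. The widest was 0.56 for CSS0026500 (2215 bases), which had 25.7 and 27.5 FPKM in Cd1 and 19.1, 19.2 and 19.7 in As1, against 11.1, 12.6 and 9.85 in Cd2, 9.40, 9.55 and 10.8 in As2, and 7.66, 11.5 and 8.34 in CK. The next was 0.55 for CSS0021267 (2085 bases), which had 8.03 and 4.33 FPKM in Cd1 and 5.63, 6.06 and 5.21 in As1, against 1.72, 1.91 and 1.94 in Cd2, 2.58, 2.63 and 2.35 in As2, and 2.23, 1.99 and 0.745 in CK. These were the members that stood furthest clear, and neither was among the most abundant.

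At the other end, the smallest distance was 4.1e-05 for CSS0020895 (1518 bases), with 6.455 FPKM in As1 replicate 3 from 128 fragments and 6.455 in Cd2 replicate 2 from 113 fragments. Just outside the rule, CSS0029008 had 9.780 FPKM in As1 replicate 3 and 9.784 in As2 replicate 3, and CSS0039972 had 11.06 in As1 replicate 3 and 11.07 in As2 replicate 3. Both had mean rises above the minimum, of 1.59 in Cd1 and 1.71 in As1 for CSS0029008 and of 1.56 in Cd1 and 1.10 in As1 for CSS0039972, so a single As2 library kept them off the list.

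**Figure D3:**
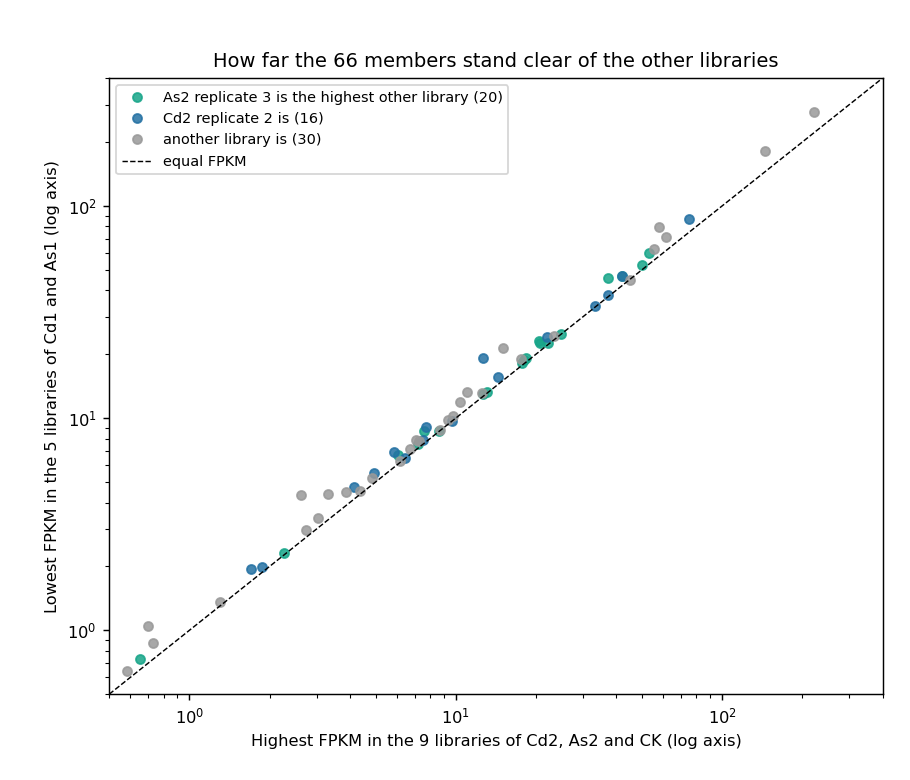
Each point is 1 of the 66 members, with its highest FPKM in the 9 libraries of Cd2, As2 and CK on the horizontal axis and its lowest FPKM in the 5 libraries of Cd1 and As1 on the vertical axis, both on log axes, coloured by which library was the highest of the 9. All points lie above the dashed line of equal FPKM because the rule put them there, mostly close to it, and As2 replicate 3 set the bound in 20 members and Cd2 replicate 2 in 16.

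The counting error of the bounding libraries was set beside this distance. With exact 95% Poisson intervals on the fragments, the lowest library at 10 d and the highest other library had separate intervals in 8 members, including CSS0007401, CSS0050370, CSS0002967, CSS0017752, CSS0026500 and CSS0021267. Overlapping intervals do not show that the distance in the other members lay within counting error. In 45 members every library at 10 d held at least 100 fragments, and in 3 members some library at 10 d held under 10. In 3 members the lowest library at 10 d held no more fragments than the highest other one, with 47 and 47 fragments for CSS0000549, and with 80 and 82 and with 4 and 4 for genes without a CSS identifier, so for them the order came from the scaling to FPKM. A library with 0 fragments occurred in 6 members, of which CSS0033696 was the only 1 with a CSS identifier.

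The metals at 10 d were compared next. The rule treated Cd1 and As1 alike but used every library of both, so this comparison is not independent of it. In Cd1 vs. As1, 0 of the 66 members passed the DEG threshold by limma with Benjamini-Hochberg adjustment over all 33109 genes, where 1.63% of all genes tested passed it in either direction. At an unadjusted p under 0.05 there were 5 members (7.58%), against 18.5% of the genes tested, and limma-voom on the recovered fragments also called 0, with 5 at an unadjusted p under 0.05. The rule placed both groups above the same bound, which limits how far they can differ in the members. These shares are therefore not a comparison of like with like, and they cannot decide whether the metals differed in these genes.

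The median difference Cd1 minus As1 was -0.0016 on the log2 scale, 33 members were higher in Cd1 and 33 higher in As1. For 44 members the 95% interval of the difference lay within ±1, and for the other 22 it reached beyond that. No share of all genes tested is set beside these interval counts. The Cd1 and As1 libraries did not overlap in 15 members (22.7%), 10 with Cd1 above and 5 with As1 above, where 33.1% of all genes tested did not overlap.

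The widest differences, named after their values were seen, were in both directions. CSS0019623 had 8.79 and 10.3 FPKM in Cd1 and 25.2, 33.1 and 26.8 in As1, against 4.48, 1.30 and 3.62 in Cd2, 2.25, 5.74 and 4.15 in As2, and 8.74, 6.05 and 2.16 in CK, a difference Cd1 minus As1 of -1.47 ± 0.47 (SE; limma adjusted p = 0.119). Its Cd1 libraries barely cleared CK replicate 1 while its As1 libraries stood far above. CSS0033696, given above, had a difference of 1.10 ± 1.11 (SE; limma adjusted p = 0.644) with both Cd1 libraries above all As1 libraries. The smallest adjusted p was 0.118, for CSS0021582, at -0.68 ± 0.21 (SE).

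**Figure D4:**
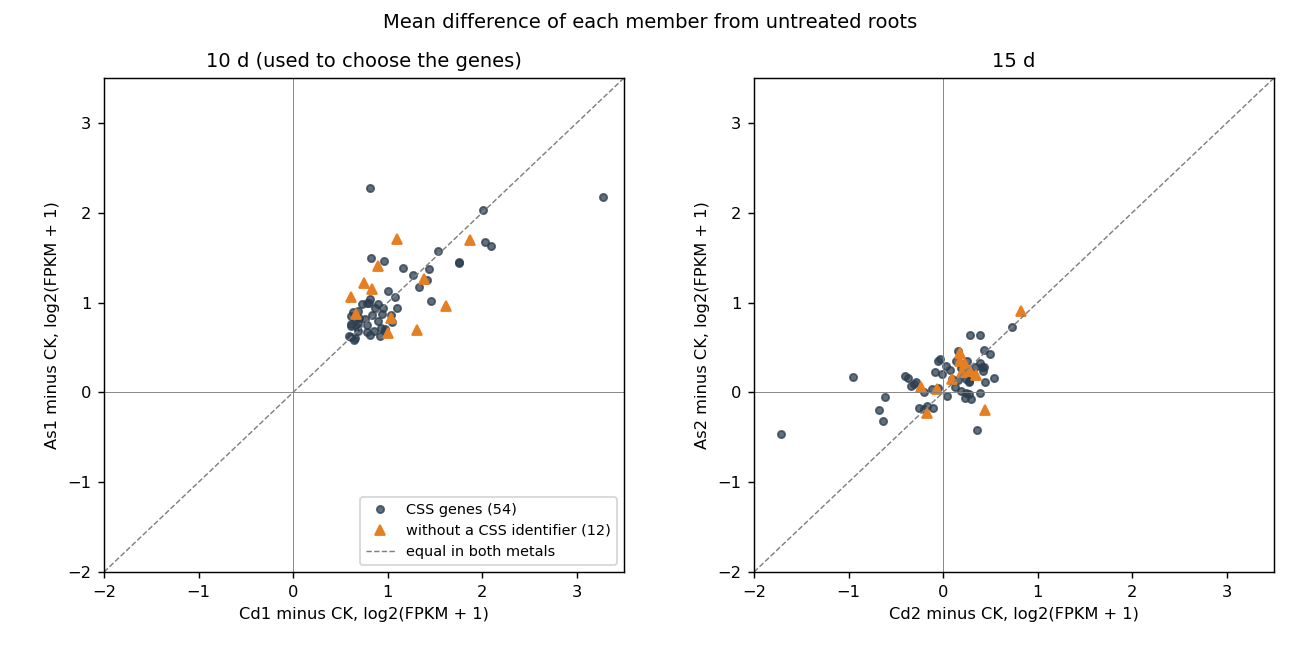
Each point is 1 of the 66 members, with the mean log2(FPKM + 1) under Cd minus CK on the horizontal axis and that under As minus CK on the vertical axis, at 10 d on the left and at 15 d on the right, and triangles for the 12 genes without a CSS identifier. All points at 10 d lie above 0.58 on both axes because the rule required it. At 15 d 56 members lie within 0.5 of CK under both metals. The rule held Cd2, As2 and CK under the same bound, no share of all genes tested is set beside this count, and nothing is read from it.

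At 15 d the metals were again set side by side. The rule held Cd2 and As2 under the same bound, which limits how far they can differ in the members. Only 1 of all 33109 genes tested passed the DEG threshold in this comparison, so a count of 0 among the members says little. In Cd2 vs. As2, 0 members passed the DEG threshold, where 0.00302% of all genes tested did, and 8 members (12.1%) had an unadjusted p under 0.05, against 12.4% of the genes tested. limma-voom also called 0, with 8 at an unadjusted p under 0.05. The median difference Cd2 minus As2 was -0.05 on the log2 scale, within a range of -1.25 to 0.78. The smallest adjusted p was 0.149 for CSS0026237, named after its values were seen, which had 3.86, 3.35 and 2.72 FPKM in Cd2 and 6.19, 10.4 and 8.91 in As2, against 8.31, 8.93 and 5.17 in CK. Every Cd2 library of this gene lay below every As2 and every CK library.

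Whether the members were back at the untreated level at 15 d was compared next. The rule held Cd2, As2 and CK under the same bound and used the CK mean, so these comparisons are not fully independent of it. In Cd2 vs. CK, 0 members passed the DEG threshold, where 0.0332% of all genes tested did, and 10 (15.2%) had an unadjusted p under 0.05, against 12.5% of the genes tested. In As2 vs. CK, 0 members passed it, where 0.0151% did, and 4 (6.06%) had an unadjusted p under 0.05, against 9.04%. limma-voom called 0 in both, with 10 and 4 at an unadjusted p under 0.05 in that order.

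The median difference was 0.17 in Cd2 minus CK and 0.15 in As2 minus CK on the log2 scale, against 0.0071 and 0.0058 over all genes tested. With the rule applied again, the Cd2 minus CK median was 0.04 without As2 replicate 3 and 0.09 without Cd1 replicate 2, and 0.25 with a pseudocount of 0.1. The difference was above 0 for 42 members in Cd2 (63.6%, against 50.8% of the genes tested) and for 49 in As2 (74.2%, against 50.6%). The rule required a CK mean well below Cd1 and As1, which by itself favours a low CK and so a difference above 0, and nothing is read from these medians and shares. Both 15 d means were above CK in 34 members and both below in 9. In Cd2 vs. CK the 95% interval lay within ±1 for 48 members and in As2 vs. CK for 50, and the intervals of the other members reached further. No share of all genes tested is set beside these interval counts. A missed threshold does not show that a member was back at the level of CK.

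The largest positive difference at 15 d was that of the gene of 1793 bases without a CSS identifier, at 0.83 ± 0.26 in Cd2 and 0.90 ± 0.26 in As2 (SE; limma adjusted p = 0.228 and 0.267). The largest negative one, named after its values were seen, was that of CSS0000549, with 2.78, 0.657 and 2.16 FPKM in Cd2 and 3.34, 8.14 and 5.72 in As2, against 9.36, 8.57 and 5.99 in CK. Its difference Cd2 minus CK was -1.71 ± 0.36 (SE; limma adjusted p = 0.123), and all 3 Cd2 libraries lay below all 3 untreated ones. At 10 d it had 14.03 and 16.2 FPKM in Cd1 and 9.82, 19.7 and 11.8 in As1.

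How far the list rests on single libraries was measured by applying the rule again with each library left out. Between 56 and 201 genes then met it. Without Cd1 replicate 2, 201 genes met the rule, of which 63 were among the 66. Without As2 replicate 3, 162 met it and all 66 were kept. Without As1 replicate 3 the number was 114 with 64 kept, and without As1 replicate 1 it was 102 with 64 kept.

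The library whose absence removed most members was CK replicate 3. Without it 56 genes met the rule and 48 of the 66 were kept, since the CK mean was then higher. Without Cd1 replicate 1, 53 of the 66 were kept among 85 genes.

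**Figure D5:**
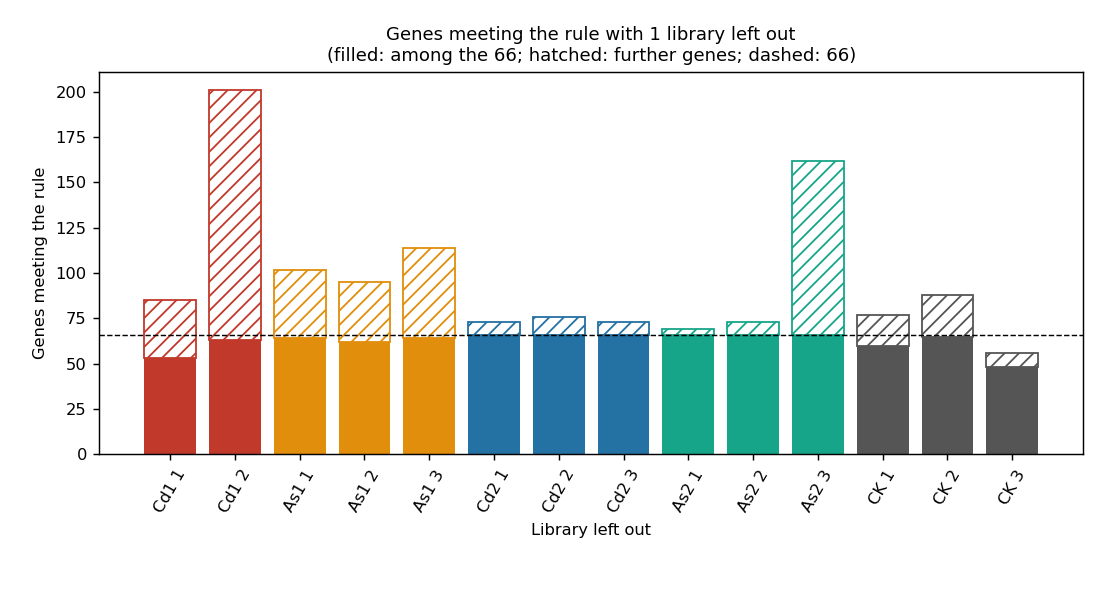
Each bar is the number of genes meeting the rule with 1 library left out, in the order Cd1, As1, Cd2, As2 and CK, with the filled part the genes among the 66 and the hatched part further genes, and the dashed line at 66. The tallest bars are those without Cd1 replicate 2 and without As2 replicate 3, and the lowest filled part is that without CK replicate 3.

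The study's text names 22 CSS genes as transcription factors, structural genes or a calcium sensor. Many of them are named there as lowered, or as lowest at 10 d, which is the reverse of the rule. All 22 were tested and 0 of them were members, where 66 of all 33109 genes tested were. Both means at 10 d were at least 0.58 above CK in 3 of them. No share of all genes is set beside the 3, and nothing is read from these counts. Of those 3 the nearest to the rule was CSS0041447, named there as a bHLH transcription factor, which had 105.3 and 56.9 FPKM in Cd1 and 47.4, 77.5 and 38.1 in As1, against 21.7, 31.3 and 25.5 in Cd2, 33.9, 30.2 and 61.3 in As2, and 26.8, 31.7 and 13.7 in CK. As2 replicate 3 lay above its lowest libraries at 10 d. The study's text states that CSS0041447, CSS0018401 and CSS0049619 peaked at 10 d of both treatments and then fell sharply. The values here use 2 Cd1 libraries, where the study labelled 3. The log2 difference from CK was 1.72 in Cd1 and 1.16 in As1 for CSS0041447, and -1.73 and -0.62 for CSS0049619. CSS0049619 had 29.1 and 38.9 FPKM in Cd1, against 38.1, 48.2 and 78.3 in Cd2. In As1 it had 107.9, 39.6 and 93.3, against 84.1, 194.6 and 76.5 in As2. CSS0018401 had 207.3 and 197.3 FPKM in Cd1, against 293.3, 330.8 and 232.9 in Cd2. It had 212.3, 297.4 and 278.45 in As1, against 182.0, 213.3 and 250.3 in As2, and 117.8, 137.3 and 117.5 in CK.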

How the data were processed

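Root RNA of 5 groups was sequenced, and per the study's methods reads were aligned with HISAT to a Camellia sinensis genome whose build was not named. The authors deposited FPKM values per gene and library, which the study's text credits to the DESeq2 package. The deposited annotation holds no CSS gene, and its other gene models differ in length from those of the tables, so its coordinates were not used. Whole fragments and gene lengths were recovered from the steps of the deposited FPKM values for all 46517 genes above 0, and the rebuilt FPKM differed from the deposited values by a relative error of at most 3.8e-08.

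Tests used limma 3.58.1 in R 4.3.3 with a mean-variance trend on log2(FPKM + 1), a pseudocount of 1, all 5 groups in 1 fit sharing their spread, for genes that reached 1 FPKM in 3 or more libraries, and Benjamini-Hochberg adjustment over all of them. Fold changes are on that scale, which understates the changes of low genes. DEGs had a log2 fold change above 1 in size at an FDR below 0.05. Intervals are at the 95% level.

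The members, lists and tests were chosen with earlier results of these data known. Genes were named as the 8 members of highest mean FPKM at 10 d, the 8 of largest smaller rise, up to 3 DEGs in each direction in the 4 tested comparisons (none occurred), the 2 of smallest and the 2 of widest distance, the 2 genes just outside the rule, annotated members (none occurred), and the nearest gene that the study names. Genes without a CSS identifier are described without naming their identifiers. Others are said to be named after their values were seen. Alternatives covered left-out libraries, the identical library, pseudocount, scaling, filters, thresholds, the replicate block and limma-voom, and 2 of them, scaling by total fragments and a minimum of 10 fragments, were chosen after seeing the data.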

Additional observations from a re-analysis of the deposited data

How the results depend on the processing

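The number of genes meeting the rule was 66 and, with 1 library left out, 56 to 201; the 4 libraries whose absence moved it by more than 1.5 times are named in the report. It was 0 with the identical library kept under both labels, since a Cd1 and a Cd2 library then tie, 73 with that library left out under both, 123 with quantile normalization (61 of the 66 kept), 18 with a minimum rise of 1, 163 with no minimum rise and 14 with a distance of at least 0.2. It was 78 with a pseudocount of 0.1 (66 kept), 66 with scaling by median ratio (63 kept), 84 with scaling by total fragments (48 kept) and 63 with at least 10 fragments in each library at 10 d. The distance was followed under the alternatives for only 18 of the members, those named by the rules given above. Among them it fell below 0 for CSS0010047 with scaling by median ratio (-0.0032). With scaling by total fragments it did so for CSS0033696 (-0.037) and CSS0020895 (-0.11).

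The count of members past the DEG threshold was 0 in the 4 tested comparisons and 0 under the alternatives, with these exceptions. In Cd1 vs. As1 it was 0 to 1 with a library left out, the 1 gene being CSS0026433 without CK replicate 2 and CSS0014637 without As2 replicate 3, neither among the 66. At an unadjusted p under 0.05 with the fold limit it was 1 in Cd1 vs. As1 (CSS0019623). There it was 2 in Cd2 vs. As2 (CSS0026237 and CSS0000549) and 1 in Cd2 vs. CK (CSS0000549). No share of all genes at that limit is set beside these counts, and nothing is read from them. With 1 Cd1 library left out, the lone Cd1 library is assumed to vary like the other groups. Over the alternatives run for it, with the rule applied again, the members' median difference was -0.031 to 0.085 in Cd1 vs. As1 and -0.11 to 0.027 in Cd2 vs. As2, both changing sign around 0, 0.04 to 0.25 in Cd2 vs. CK and 0.12 to 0.20 in As2 vs. CK.

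With the replicate number as a replicate block the count was 0 in all 4 comparisons. For deviations from the group mean, the median correlation was 0.0090 over 26 pairs of same-numbered libraries (range -0.31 to 0.28). It was 0.016 over 52 differently numbered pairs. Deviations within a group sum to 0, which ties these correlations together. They therefore cannot decide whether same-numbered libraries share more than a number.

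Depth was 10483406 to 13847064 fragments a library, and 8 members had separate 95% counting intervals in their bounding libraries.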
